A study of Homo sapiens with 4 samples.

Results

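The 9 genes described here encode subunits of the Polycomb repressive complexes. They are EZH1, EZH2, EED and SUZ12 of Polycomb repressive complex PRC2, and BMI1, RING1, RNF2, CBX2 and CBX8 of PRC1. Members were chosen by symbol. Every probe of the non-normalized table that carries one of these symbols was taken, which gave 15 probes of 47321 and 9 genes of 30908. EZH2, EED and CBX2 had 3 probes each and the other 6 genes had 1.

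Total RNA was measured on 4 Illumina bead arrays, 1 per group. The groups were the parent A549 line given vehicle, A549 cells given TET1 siRNA, the parent H1299 line given vehicle, and H1299 cells given TET1 siRNA. A549 cells come from a lung adenocarcinoma and H1299 cells from a lymph node metastasis of a non-small cell lung cancer, although the labels name bronchial epithelium as the source of both. The study compared transcript levels in both lines between cells given TET1 siRNA and cells given vehicle. No group was given a control siRNA, so an effect of giving siRNA cannot be told apart from one of lower TET1. Neither the time after transfection nor the siRNA sequence was used here.

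Polycomb proteins keep genes silent by modifying histones. In PRC2, EZH2 or its paralog EZH1 transfers methyl groups to histone H3 at H3K27, EED binds the finished mark and stimulates the enzyme, and SUZ12 holds the core together. In PRC1, RING1 or RNF2 ubiquitinates histone H2A, BMI1 partners these ligases, and CBX2 and CBX8 carry chromodomains, which read the methylated histone. TET1 oxidises 5-methylcytosine, and in embryonic stem cells it and Polycomb occupy many of the same CpG-rich promoters. EZH2 is highly expressed in many carcinomas and its transcription is driven by E2F factors, which activate genes of the cell cycle.

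The promoters of EZH2 and EED are printed because these were the genes with 2 probes that were detected on every array and changed in different directions in H1299. The sequences are RefSeq windows of 300 bases on GRCh38.p14, read 5′ to 3′ on the gene's strand, with every CpG in capitals. EZH2 has 2 annotated starts in that table.
EZH2 first start chr7:148884242-148884541 (-): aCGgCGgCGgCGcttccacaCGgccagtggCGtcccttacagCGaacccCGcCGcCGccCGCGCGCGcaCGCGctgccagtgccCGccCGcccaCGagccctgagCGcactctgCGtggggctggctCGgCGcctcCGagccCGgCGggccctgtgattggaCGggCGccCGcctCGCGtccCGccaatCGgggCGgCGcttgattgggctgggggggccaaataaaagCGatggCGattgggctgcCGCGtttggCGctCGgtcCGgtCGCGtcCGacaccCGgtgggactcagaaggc
EZH2 second start chr7:148883436-148883735 (-): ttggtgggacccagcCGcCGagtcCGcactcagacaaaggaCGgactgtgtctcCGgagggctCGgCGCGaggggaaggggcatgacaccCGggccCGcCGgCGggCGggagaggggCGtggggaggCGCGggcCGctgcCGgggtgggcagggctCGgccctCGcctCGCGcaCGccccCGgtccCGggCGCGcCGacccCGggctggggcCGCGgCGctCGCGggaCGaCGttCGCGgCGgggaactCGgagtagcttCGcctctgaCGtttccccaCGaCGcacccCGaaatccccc
EED chr11:86244503-86244802 (+): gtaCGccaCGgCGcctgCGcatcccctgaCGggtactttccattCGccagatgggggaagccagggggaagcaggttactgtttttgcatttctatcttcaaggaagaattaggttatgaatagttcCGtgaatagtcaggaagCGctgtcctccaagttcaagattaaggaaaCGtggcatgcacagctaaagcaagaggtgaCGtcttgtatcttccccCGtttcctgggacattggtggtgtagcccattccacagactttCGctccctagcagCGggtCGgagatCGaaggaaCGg
The EZH2 windows held 46 and 45 CpGs, and the EED window held 16. Over all 35116 promoter windows of this length the median was 14 CpGs, with quartiles of 4 and 28. Windows were found for 7 of the 9 genes, and CBX2 and CBX8 had none. A window with at least as many CpGs as the first EZH2 window made up 2.89% of all windows, and the same share was 47.5% for EED. SUZ12 had 40 CpGs, RING1 and RNF2 had 41 each, EZH1 had 30, and the BMI1 starts had 36 and 65. All of these windows apart from that of EED exceeded the upper quartile of all windows. E2F motifs, searched on both strands as TTTCCCGC, TTTCGCGC, TTTGCCGC or TTTGGCGC, occurred once in the first EZH2 window, once in that of SUZ12 and once in that of EZH1. Of all windows, 3.31% held such a motif. These letters were not found in the other windows, and a match describes the letters only.

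The arrays differed among themselves, and with 1 array per group these differences cannot be told apart from differences between the groups. Detected probes, with an array-software detection p under 0.01, numbered 13980 and 14417 in the A549 control and H1299 knockdown, and 17107 and 16883 in the A549 knockdown and H1299 control. Across 12965 genes detected on at least 2 arrays, the A549 control differed from the H1299 knockdown with a standard deviation of 1.355 log2 units, and from the H1299 control with 1.658. The arrays of 1 line were nearest to each other, with 0.858 in A549 and 1.122 in H1299. For the actin gene ACTB, probe ILMN_1777296 read 152.4 and 160.8 on the first pair of arrays and 3314 and 12059 on the second, while its probe ILMN_2152131 read between 14544.1 and 21725.9 on all 4. For the glycolytic gene GAPDH, probe ILMN_2038778 read 5129.6 and 9327.9 on the first pair and 23450.9 and 24625.9 on the second. GAPDH ILMN_1343295 followed the same pairs, at 4349.5 and 8065.3 on the first and 16466.8 and 16695.8 on the second. GAPDH ILMN_1802252 did not, at 11351.4 and 19230.6 on the first pair and 12632.2 and 12635 on the second. ACTB ILMN_2038777 did not either: it read 12582.8 in A549 control and 18827.5 in H1299 control cells, against 4399.2 and 7960.5 in the knockdowns. Each line has 1 array of each pair, so within a line the knockdown and this difference between arrays cannot be told apart. TET1 itself, on probe ILMN_3247163, read 222.1 in the A549 control and 164.5 in the knockdown, and 255.9 and 186.8 in H1299. It was detected in both controls and in neither knockdown, with a normalized decrease of at least 3.14-fold in A549 and 1.74-fold in H1299. The authors' deposited values gave TET1 changes of -0.28 and -0.11 on their log2-like scale, and probe ILMN_1741056 was detected in the H1299 control alone. The lines kept their identities: the epithelial genes CDH1, EPCAM and KRT19 and the reductase gene AKR1C1 were detected on both A549 arrays and neither H1299 array, and AKR1B10 was 143-fold and ALDH1A1 84.5-fold lower in H1299 (limma adjusted p = 3.07e-26 and 1.18e-25). KRT8 was detected on every array and was 3.97-fold lower in H1299 (limma adjusted p = 0.00211), KRT18 was below background on every array, the mesenchymal gene VIM was detected on every array, and the endothelial and leukocyte markers PECAM1, CDH5, PTPRC and CD3E were below background throughout, while CD14 was detected on all 4 arrays.

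Of the 15 Polycomb probes, 8 were detected on all 4 arrays, 5 on 1 to 3 arrays and 2 on none. By gene, EZH2, EED, SUZ12, BMI1, RING1 and CBX2 were detected on every array, CBX8 on 3, EZH1 on 2 and RNF2 on none. A probe's brightness depends on the probe as well as on the transcript, so the levels below are compared between arrays and never between genes.

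**Figure D1:**
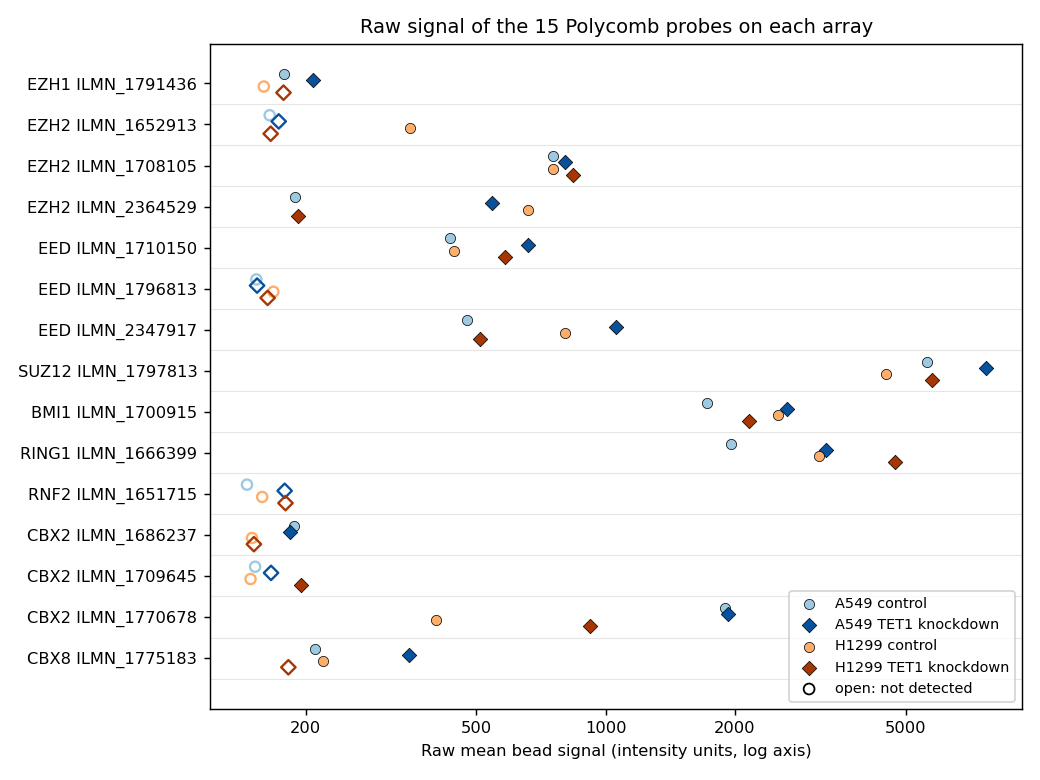
Raw mean bead signal (intensity units, log axis) of each of the 15 probes on the 4 arrays, with filled points for detected values and open points for values not above background. SUZ12, RING1 and BMI1 were bright on every array, CBX2 ILMN_1770678 was lower on both H1299 arrays (402.4 and 920.7) than on the A549 arrays (1898.7 and 1932.7), and EZH2 ILMN_2364529 was low on the A549 control (188.9) and H1299 knockdown (192.3).

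By the brightest probe, detected PRC2 and PRC1 genes differed less than 2-fold within each line after TET1 knockdown, apart from CBX2 in H1299. Dimmer probes of EZH2 did pass 2-fold, as given below. In this account the probe that is brightest on average stands for a gene, values are log2 after background correction and quantile normalization, and a gene counts as changed where its normalized signal differs at least 2-fold with detection on at least 1 of the 2 arrays. In A549, 0 of 8 detected members differed at least 2-fold, against 19.9% of 13228 genes. In H1299, 1 of 7 did, CBX2, against 33.4% of 13208 genes. No test is possible within a line, since each group has a single array. The median change of the detected members was 0.18 in A549 and 0.10 in H1299 on the log2 scale, beside -0.13 and 0.28 for all detected genes. Changes of opposite sign in the lines were seen in 5 of the 7 members detected in both, and in 79.1% of 11751 such genes. The other 2, RING1 and SUZ12, were higher in both (SUZ12 not in A549 when arrays were centred on probes detected on all of them), against 12.5% of genes, and 0 were lower in both, against 8.26%.

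**Figure D2:**
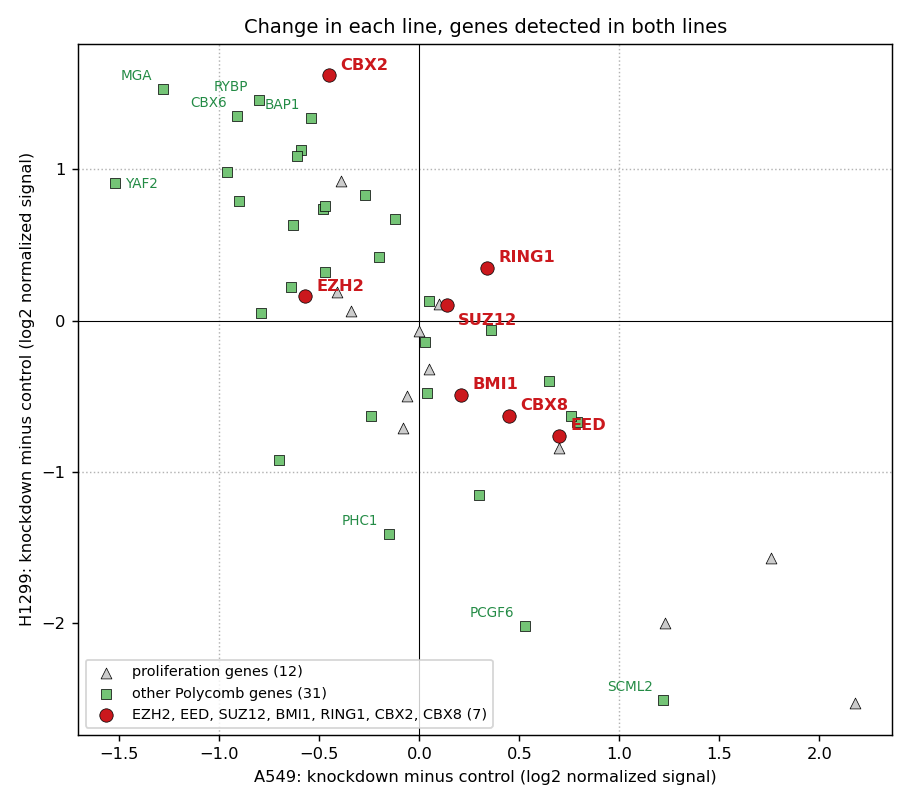
Change from control to TET1 knockdown in A549 (horizontal axis) and H1299 (vertical axis), both as log2 normalized signal, 1 point per gene detected in both lines, with dotted lines at 2-fold. RING1 and SUZ12 lay above 0 in both lines (SUZ12 in A549 at -0.22 when centred on probes detected on all arrays), CBX2 had the highest value in H1299 among the red points (1.62), and EED, CBX8 and BMI1 were higher in A549 and lower in H1299 (BMI1 in A549 at -0.03 with that centring).

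EZH2, the main H3K27 methyltransferase, gave a different account on each of its 3 probes. Probe ILMN_1708105, the brightest, read 756.3 in A549 control cells and 804 with knockdown, and 756 and 839.2 in H1299. These raw values lie within a narrow range, and after normalization the A549 change was -0.57 (1.49-fold lower) and the H1299 change 0.16 (1.12-fold higher). Probe ILMN_2364529 read 188.9 in A549 control cells and 543.5 with knockdown, but 661 in H1299 control cells and 192.3 with knockdown. On this probe EZH2 was 3.56-fold higher in the A549 knockdown and 7.7-fold lower in the H1299 knockdown, with all 4 values detected. The 2 high readings are on the arrays where ACTB ILMN_1777296 and GAPDH ILMN_2038778 also read high, and the part of that array difference in the EZH2 values was not tested. Of 18922 detected probes with a gene symbol, 8.97% passed 2-fold upward in A549 and downward in H1299, and 1.93% changed at least as much as this EZH2 probe in both lines. Probe ILMN_1652913 was detected in the H1299 control alone, at 349.9 against 165.9 in the H1299 knockdown, at least 3.02-fold lower. It read 165 and 173.2 in A549, not above background. Both dimmer probes thus read lower in the H1299 knockdown and the brightest did not, so the direction of EZH2 in H1299 depends on the probe taken. On the authors' deposited values the changes of ILMN_2364529 were 0.59 and -1.04 and those of ILMN_1708105 were -0.40 and 0.10, with the same signs. The same signs were seen for both probes with no background correction and with median centring. With median centring, however, the A549 change of ILMN_1708105 was only -0.02.

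EED, the PRC2 subunit that binds the H3K27 mark, also split by probe. Probe ILMN_2347917 read 475.4 in the A549 control and 1059.7 in the knockdown, and 804.9 and 510.5 in H1299. It was 1.63-fold higher in the A549 knockdown and 1.7-fold lower in the H1299 knockdown. Its 2 higher values are on the same arrays as those of EZH2 ILMN_2364529. Probe ILMN_1710150 read 434.8 and 659.3 in A549 and 444.6 and 584.3 in H1299, higher in raw signal in both knockdowns. After normalization its A549 change was -0.02, which was 0.66 with median centring, and its H1299 change was 1.57-fold upward. Probe ILMN_1796813 was below background on all 4 arrays. Among 1680 genes with at least 2 probes detected on all arrays, the changes of a gene's probes spanned a median of 0.49 log2 units in A549 and 0.84 in H1299. EZH2 spanned 2.40 and 3.11, and EED 0.72 and 1.41. Probes of 1 gene were at least 2-fold apart in 22% of such genes in A549 and in 42.7% in H1299. EZH2 was past that mark in both lines and EED in H1299. Probe changes of opposite sign occurred in 39% of these genes in A549 and 42.5% in H1299, with EZH2 among them in both lines and EED in H1299. In A549 the sign of EED ILMN_1710150 depended on the scaling.

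**Figure D3:**
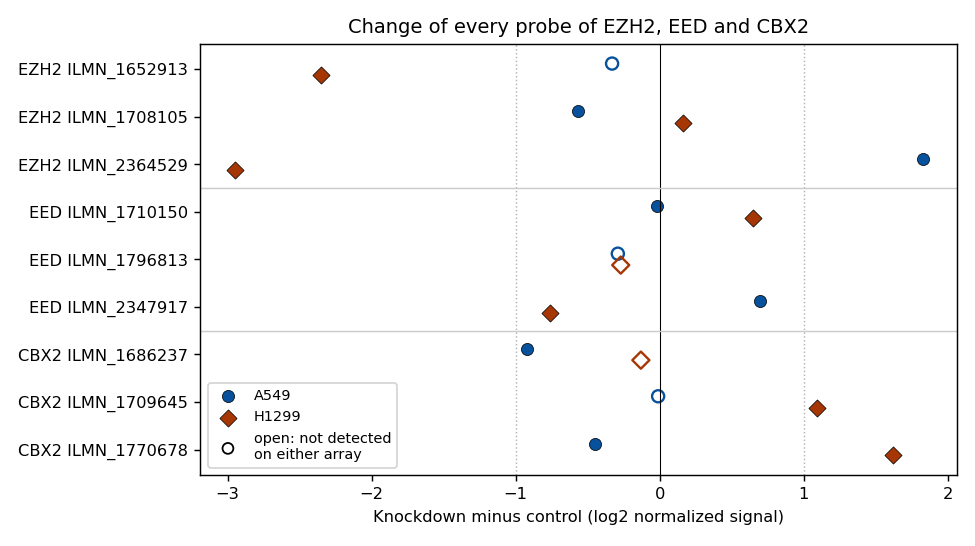
Change from control to TET1 knockdown (log2 normalized signal) for each probe of EZH2, EED and CBX2, with filled points where either array of the line detected the probe. The EZH2 probes spread from -2.95 to 0.16 in H1299, while the CBX2 probes with detection there lay at 1.09 and 1.62.

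SUZ12, the scaffold of PRC2, read 5620.7 in the A549 control and 7678.8 in the knockdown, and 4497.1 and 5772.3 in H1299. The raw signal was higher in both knockdowns, and after normalization the difference shrank to 1.1-fold in A549 and 1.07-fold in H1299. When arrays were centred on the probes detected on all of them, the SUZ12 change in A549 was -0.22. SUZ12 has a transcribed pseudogene, SUZ12P1, which may share sequence with it. Of the 5 probes of SUZ12P1 the brightest, ILMN_1697095, read 187.5 and 294.3 in A549 control and knockdown cells and 209.9 and 183.5 in H1299, near background. EZH1, the paralog of EZH2 typical of resting cells, was detected in A549 alone, at 178.5 in the control and 208 in the knockdown, 1.15-fold lower after normalization, although its change was 0.38 with median centring. In H1299 its 159.9 and 177.7 were not well above background.

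Among PRC1 genes, RING1 was higher in both knockdowns by nearly the same amount. RING1, a ubiquitin ligase for histone H2A, read 1958.2 in A549 control cells and 3260.5 with knockdown, and 3145.8 and 4725.2 in H1299. It was 1.27-fold higher in each knockdown after normalization, a change of 0.34 in A549 and 0.35 in H1299. Across the alternatives the RING1 change stayed above 0, between 0.09 and 0.67 in A549 and between 0.34 and 0.74 in H1299. The paralog RNF2, the other H2A ligase, read between 146.1 and 179.6 and was not above background on any array, so no fold is given. BMI1, the partner of both ligases, read 1727.9 and 2648.7 in A549 and 2521.7 and 2164.6 in H1299. It was 1.16-fold higher in the A549 knockdown and 1.4-fold lower in the H1299 knockdown, and its change in A549 was -0.03 when centred on probes detected on all arrays. COMMD3, the neighbouring gene that can be read through into BMI1, read 4254.2 and 4795.1 in A549 and 4175.9 and 6519.8 in H1299. Its changes were -0.18 and 0.40, and the former was 0.07 with median centring.

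CBX2, which recruits PRC1 through its chromodomain and compacts chromatin, was the member whose brightest probe passed 2-fold in H1299. Its brightest probe ILMN_1770678 read 402.4 in the H1299 control and 920.7 in the knockdown, 3.06-fold higher after normalization. In A549 the same probe read 1898.7 and 1932.7, 1.37-fold lower after normalization. Probe ILMN_1709645 was detected in the H1299 knockdown alone, at 194.9 against 148.9 in the control, at least 1.48-fold higher. Probe ILMN_1686237 was detected in A549 alone, at 188.3 and 184, and was 1.89-fold lower in the knockdown after normalization. That change was only -0.33 with no background correction and -0.12 on the deposited values. On the deposited values the H1299 change of ILMN_1770678 was 0.96, just under 2-fold. With the mean of all detected CBX2 probes it was 0.86. CBX8, another chromodomain subunit, read 210 and 347.8 in A549 and 219.7 and 182.4 in H1299, undetected in the last. The A549 knockdown was 1.36-fold higher, and the H1299 knockdown was lower by 1.29-fold or more. Its highest reading is on the A549 knockdown array and its lowest on the H1299 knockdown array.

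Across the lines no Polycomb member separated from 0. A linear model of line and knockdown was fitted with limma to 12965 genes and adjusted by Benjamini-Hochberg at 0.05, with 1 residual degree of freedom. Of the 8 members tested, 0 passed, and 0 had an unadjusted p under 0.05, against 0.00771% and 0.162% of all genes tested. The largest mean change was that of CBX2, 0.58 ± 0.81 (SE) log2 units (limma unadjusted p = 0.47, adjusted p = 1), and the next was that of RING1, 0.34 ± 0.60 (SE; unadjusted p = 0.568, adjusted p = 1). The other 6 lay between -0.20 for EZH2 and 0.12 for SUZ12. Standard errors of the members ran from 0.53 for SUZ12 to 1.01 for CBX8. These errors follow the usual size, at each signal level, of the part of the change that is opposite in the lines. Its standard deviation over genes was 0.921, while that of the mean change was 0.386. A shared change of the size seen for RING1 could thus not be separated from 0. The opposing part also sets the A549 knockdown and H1299 control arrays against the other arrays. Disagreement of the lines and that difference between arrays therefore cannot be told apart in it.

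Among the 8 members tested, CBX2 had the largest difference between the lines. CBX2 ILMN_1770678 read 1898.7 and 1932.7 on the A549 arrays and 402.4 and 920.7 on the H1299 arrays. It was 4.37-fold lower in H1299, a difference of -2.13 ± 0.81 (SE) log2 units in limma (unadjusted p = 0.00843, adjusted p = 0.122), which does not pass at 0.05. The difference was -3.16 between the control arrays and -1.10 between the knockdown arrays. Between arrays of like detection it was -2.71 for the H1299 control against the A549 knockdown. For the H1299 knockdown against the A549 control it was -1.54. The CBX2 difference was thus negative in every pairing of arrays, as were those of SUZ12, CBX8 and EZH1. Without the H1299 knockdown array it was -2.93 (limma adjusted p = 0.0143) and without the H1299 control array -1.32 (adjusted p = 0.189). These fits had no knockdown term, and the single H1299 array left was assumed to vary like the A549 arrays. With the mean of detected probes the difference was -0.95 (limma adjusted p = 1), and over all alternatives the adjusted p ran from 0.0143 to 1. Its probe ILMN_1686237 was at least 1.21-fold lower in H1299, not above background there, whereas ILMN_1709645 was detected in the H1299 knockdown alone. CBX8 was above background on both A549 arrays and on 1 of the 2 H1299 arrays. With the undetected array at its floor it was at least 1.99-fold lower in H1299, and the fit on the values as read did not pass (limma adjusted p = 0.97). The CBX8 difference was -0.59 between the control arrays, where both were detected, and on the deposited values its difference between the lines was -0.21. By its bound EZH1 was at least 1.27-fold lower in H1299, at -0.68 between the control arrays but only -0.01 between the knockdown arrays. On the deposited values the EZH1 difference between the lines was -0.06. Neither H1299 reading of EZH1 was above background, so its sign in each pairing rests on undetected values. SUZ12 was 1.41-fold lower and RING1 1.41-fold higher in H1299, each with nearly equal differences in the control and knockdown arrays (-0.47 and -0.52, and 0.49 and 0.50). RING1 was higher in H1299 in every pairing of arrays. The share of all genes that are lower or higher in every pairing was not counted. BMI1 (0.01), EZH2 (-0.07) and EED (-0.30) differed less, and all 3 differences changed sign between the control and knockdown arrays. In limma 0 of 8 members passed between the lines and 1 had an unadjusted p under 0.05, against 5.05% and 11.6% of all genes tested.

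**Figure D4:**
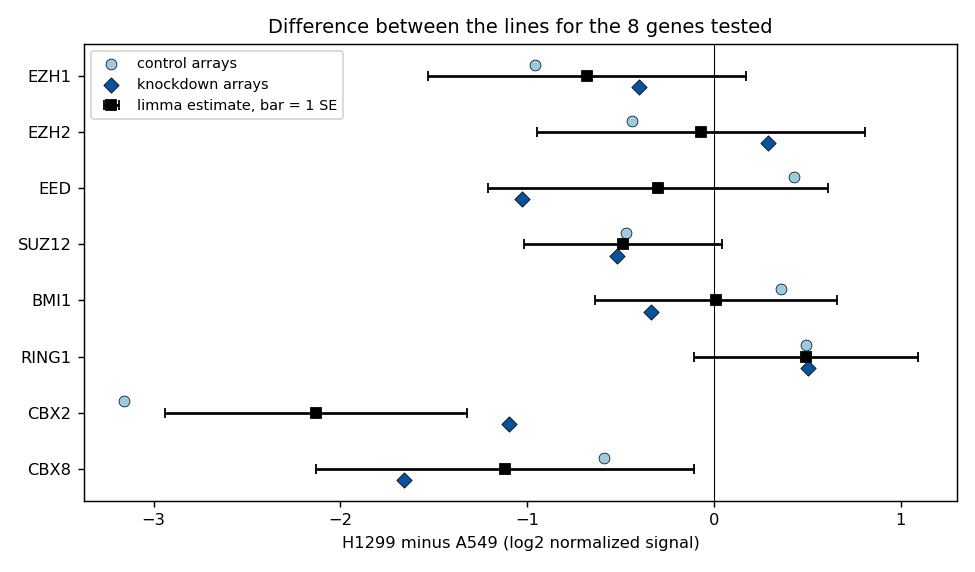
Difference between H1299 and A549 (log2 normalized signal) for the 8 genes tested, with the limma estimate and 1 standard error as a square with a bar, the control arrays as circles and the knockdown arrays as diamonds. CBX2 had the lowest estimate (-2.13) and its knockdown arrays (-1.10) were closer together than its controls (-3.16), while SUZ12 and RING1 had nearly the same difference in both.

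The other Polycomb genes formed a list of 36, all on the array and 32 detected on at least 1 array. It held PRC2 partners, the remaining PRC1 subunits, the PR-DUB deubiquitinase genes and the H3K27 demethylases. In A549, 1 of 31 detected genes was at least 2-fold higher and 2 were at least 2-fold lower, against 11.1% and 8.8% of all genes. In H1299, 6 of 32 were at least 2-fold higher and 5 lower, against 18.6% and 14.8% of all genes. Changes of opposite sign in the lines were found in 27 of 31 genes, against 79.1% of all genes detected in both lines. The list's median change was -0.47 in A549 and 0.27 in H1299, beside -0.13 and 0.28 for all detected genes. Across lines limma called 0 of 31 tested genes for knockdown and 0 for line, against 0.00771% and 5.05% of all genes tested. At an unadjusted p under 0.05 there were 0 and 0, against 0.162% and 11.6%.

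In A549 the 2 lower genes were YAF2, a partner of RING1 and RNF2 in variant PRC1 (2.87-fold), and MGA, a DNA-binding component of the complex with PCGF6 (2.43-fold). A second YAF2 probe, ILMN_1669303, changed by the same -1.52. SCML2, a Polycomb group protein with MBT domains, was higher as read, and at least 1.41-fold higher with its undetected control at the floor. In H1299 the higher genes were led by MGA (2.88-fold), RYBP (2.76-fold), the paralog of YAF2, CBX6 (2.54-fold), a chromodomain subunit, and BAP1 (2.53-fold), the deubiquitinase that removes the PRC1 mark. A second MGA probe, ILMN_2372384, detected on 2 arrays, changed by -0.62 in A549 and -0.24 in H1299. The lower genes were led by PHC2 (at least 3.68-fold), a polyhomeotic subunit, SCML2 (at least 2.77-fold), PCGF6 (4.05-fold), a paralog of BMI1, and PHC1 (2.66-fold). The PCGF6 probes disagreed in H1299. ILMN_1656574 changed by -2.02 and ILMN_2401701 by 0.08, while ILMN_1810181 read 616.8 in the control and 143.9, not above background, in the knockdown, at least 7.16-fold lower. Of the PRC2 partners, 0 of 8 passed 2-fold in each line by the brightest probe, against 19.9% and 33.4% of all genes. Other probes of these genes did pass: PHF19 ILMN_1745420 changed by 1.11 in A549, and in H1299 PHF19 ILMN_1756676 changed by 1.25, RBBP4 ILMN_2062524 by 1.05 and PHF1 ILMN_1746968 by -1.52. By the brightest probe PHF1, a Tudor-domain partner, changed by -0.92 in H1299, and JARID2, which helps bring PRC2 to its targets, changed by -0.27 and 0.83.

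Proliferation genes are given because EZH2 is known to follow the cell cycle. Of 13 listed genes 12 were matched, CDK1 not among them, and all 12 were detected. In A549, 3 were at least 2-fold higher and 0 lower, against 11.1% and 8.8% of all genes. In H1299, 0 were higher and 3 lower, against 18.6% and 14.8% of all genes. With undetected sides at the floor, 2 were higher in A549 and 2 lower in H1299. MCM5, a subunit of the replicative helicase, read 269.5 in the A549 control and 1267.2 in the knockdown, and 1479.7 and 349.5 in H1299. Its higher values are on the same arrays as those of EZH2 ILMN_2364529. MCM7 changed in the same directions as MCM5, by 1.76 in A549 and -1.57 in H1299, and MCM2 by 0.70 and -0.84. MCM3 probe ILMN_1806818 changed by 2.5 and -4, but the brightest MCM3 probe by -0.06 and -0.50. TOP2A, the mitotic topoisomerase, changed by 0.00 and -0.07, and CCNB1, a mitotic cyclin, by 0.10 and 0.11. MCM6 changed by -0.41 and 0.19, and E2F1 by -0.39 and 0.92. Changes of opposite sign in the lines, in either direction, were found in 8 of the 12, against 79.1% of all genes detected in both. Among 9686 other genes detected on all arrays, the profile of EZH2 on its brightest probe was nearest to those of SRFBP1, AVPR2 and SPINDOC, with root mean square differences of 0.00905, 0.0258 and 0.0276 log2 units over the 4 arrays. In all, 102 genes lay within 0.1 of it.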

How the data were processed

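The deposited table holds a raw mean bead signal intensity per probe and array, with no background subtraction or normalization, and a detection p-value, per the file headers. The authors' other deposited table, in which lumi was used per the submitters' processing notes, has log2-like values. Its settings and the lumi version are not stated. Per the labels, biotinylated cRNA was made with an Ambion MessageAmp kit.

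Intensities underwent normexp background correction, with the negative controls estimated through the detection p-values, and were given an offset of 16, quantile normalized and log2 transformed (neqc, limma 3.58.1, R 4.3.3). Older symbols were replaced by RefSeq's (GRCh38.p14): of 31397 symbols, 17761 were current, 3283 were renamed and 10353 were kept. Probes with no symbol (3270) or a date as symbol (54) were left out. Each gene took its probe with the highest mean signal. Where 1 side was below background, its value was raised to the lowest detected value of that array, and the fold is written as at least N-fold. limma used an intensity trend and two-sided tests, and genes detected on at least 2 arrays; the prior degrees of freedom came out infinite, which makes every standard error follow the intensity trend over genes. Figures were drawn with matplotlib 3.10.9.

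The 9 genes, the other lists and the rule for named genes were chosen with earlier results of these data known. The rule took all probes of the 9 genes and of TET1, ACTB and GAPDH, up to 4 other Polycomb genes each way in each line, the extreme proliferation genes, and the 3 profiles nearest EZH2. SUZ12P1, COMMD3, PHF1, PHF19, RBBP4, JARID2, TOP2A, CCNB1, MCM2, MCM3 and MCM7 were chosen after their values were seen. Nothing in the labels tells of separate cultures, so p-values speak only for these samples. They rest on the spread between these arrays pooled over genes of like signal, and not on a gene's own spread. Having only 4 arrays keeps every estimate imprecise. One marker of the lines is not reported here.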

Additional observations from a re-analysis of the deposited data

Results flagged for a closer look

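EZH2 probe ILMN_2364529 changed by 1.83 in A549 and by -2.95 in H1299 on the log2 scale, at least 2-fold in opposite directions after the same knockdown. It was the 1 probe of the 15 to do so. The difference between the lines was not tested, since each group has 1 array. Normalized, its low readings were 6.54 in the A549 control and 6.06 in the H1299 knockdown. The lowest detected values of those arrays were 6.14 and 6.03. Both changes passed 2-fold with no background correction (1.06 and -1.73) and with median centring (2.53 and -3.01). Deposited values gave 0.59 in A549, under 2-fold, and -1.04 in H1299. Its high readings share arrays with those of ACTB ILMN_1777296, and the part of that array difference was not tested.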

How the results depend on the processing

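Of the 9 genes, 2 passed 2-fold in A549 with median centring over all probes (EED at 1.29 and CBX8 at 1.21), against 0 otherwise. In H1299 the count was 0 on the deposited values and 2 with the lowest detected probe of each gene, which gave EZH2 -2.35, against 1 otherwise. With the mean of detected probes that 1 gene was EZH2, at -1.71, and not CBX2. For the other Polycomb genes, the A549 count of 3 became 1 with no background correction and 6 with median centring. It was 0 on the deposited values and 5 with the lowest detected probe. The H1299 count of 11 became 2 on the deposited values, 8 with no background correction and 15 with median centring. With the mean of detected probes the H1299 count was 8. The remaining alternatives gave counts between 2 and 4 in A549 and between 10 and 13 in H1299. Leaving out each array in turn, the count of members called between the lines ranged from 0 to 1, the latter without the H1299 knockdown array, where the single H1299 array was assumed to vary like the A549 arrays. No member was called for knockdown under any alternative run. The main knockdown fit called only 1 of 12965 genes, so the absence of calls says little about the members. The members' median change ran from -0.11 to 0.46 in A549 and from -0.06 to 0.30 in H1299. Median centring moved the median of all genes in A549 from -0.13 to 0.35 and the split of 2-fold calls from 1464 higher and 1164 lower to 2836 and 169, and no background correction gave 650 and 233. In H1299 the split went from 2457 higher and 1950 lower to 841 and 1078 with no background correction, 416 and 684 on the deposited values, and 1791 and 2316 with centring on the probes detected on all arrays, which was chosen after seeing the data. Apart from what the values show, causes were not tested. The knockdown fit already sets each knockdown against the control of its own line, and without that block 0 members were called. No paired analysis was possible by replicate number, because each group has 1 array. Signals of EZH1, RNF2, CBX8 and the dimmer CBX2 and EZH2 probes were near background, which limits any statement on them.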
